A study of Drosophila melanogaster with 24 samples.

Results

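The comparison set flies raised as larvae on a poor diet against flies raised on a standard diet within the Control populations of Drosophila melanogaster. It used 12 of the 24 RNA-seq libraries of the series, chosen by the larval diet, evolutionary regime and replicate population given in their characteristics. Each of 6 Control populations, C1 to C6, gave 1 library per diet, so the populations form 6 pairs. Poor food held 0.25 of the yeast, sugars and cornmeal of standard food, and bottles of both foods started with some 200 eggs in 40 ml. All adults, poor-raised and standard-raised alike, lived on standard food from day 1 and were dissected at about 4 days, so diet always means larval diet here. The 12 Selected libraries, from populations S1 to S6 on the same pair of diets, serve only for setting the Control response beside another. How the Control and Selected populations were kept over generations is not stated in the sources used.

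Each library came from 1 pool of 10 abdominal carcasses of mated females. What remains of an abdomen once its ovaries, its gut and the larger part of its Malpighian tubules are taken out is mainly fat body on the body wall. Some hemolymph, oenocytes, neurons and tubule fragments stay with it. The fly fat body does the work of liver and adipose tissue: it stores fat and glycogen, detoxifies, secretes immune peptides and, in females, makes yolk proteins. The body wall carries the epidermis, which lays down the chitin cuticle around the time of emergence, with muscle and the nerve endings that serve it. The question behind the comparison is how far food eaten as a larva still shows in adult gene expression after several days on common food. In a bulk sample, fewer cells of a type and less RNA per cell cannot be told apart, and this holds for every gene below.

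Total estimated counts were 29.4 to 31.0 M in poor libraries and 30.0 to 31.2 M in standard libraries. The labels' titles contradict the characteristics: for the 12 Control libraries the title names the other diet in 12, another regime in 6, and the population of the characteristics in 0. All directions follow the characteristics, and whether the titles or the characteristics hold was not tested. Levels are CPM, counts scaled to a common library total with TMM factors, and fold changes are log2 values, poor minus standard, ± SE. They come from edgeR's quasi-likelihood F test on 10184 genes with population as a block, and a gene is called where the Benjamini-Hochberg adjusted p is below 0.05. With 6 values per diet, levels are given as the lowest, the median and the highest where they are not given per population. Genes on opposite strands that overlap cannot be told apart, since the use of strand in counting is not stated in the sources used. The labels call the 6 populations replicates, and each p measures the spread over these 6 pairs.

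Several libraries stood apart in markers of tissues that the dissection removes. Summed germline and oocyte markers reached 4360 CPM in C4 standard and 1670 in C3 standard, against 519 to 911 in the other 4 standard libraries, and ran from 538 to 1790 CPM in poor libraries. Cell cycle genes followed them, at 2040 and 999 CPM in the same C4 and C3 standard libraries. Eggshell genes summed to 899 CPM in C5 poor and 1470 in C4 standard, and to 46.4 CPM or less in all the others. Midgut digestive enzymes varied most between the diets, from 305 to 6410 CPM on poor food and from 3630 to 11900 CPM on standard food, lower on poor in 4 of 6 populations (exact permutation test over the 6 pairs, two-sided p = 0.125, smallest possible 0.0312). Libraries on poor food also held more counts on ribosomal RNA pseudogenes in 6 of 6 populations, 2.98% ± 0.907 of all counts on poor and 1.44% ± 0.405 on standard (SD, n = 6 each, exact permutation p = 0.0312, two-sided, the smallest 6 pairs allow). Fat body transcripts were present in all 12 libraries: Yp1, a product of the female fat body, was at 4150 TPM or more in each, and Yp2 at 1360 TPM or more.

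**Figure D1:**
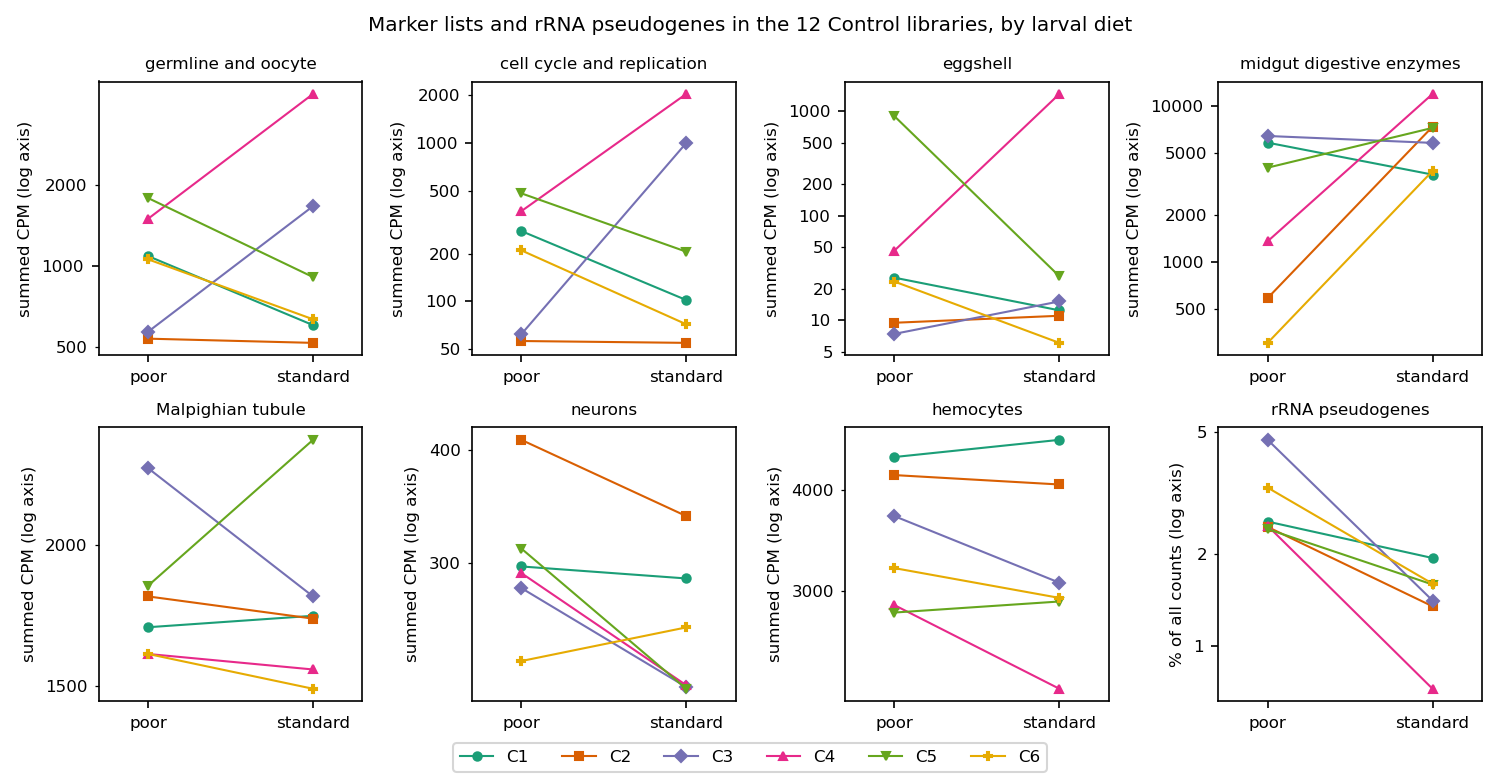
Summed level of 7 marker lists (CPM, log axis) and share of counts on ribosomal RNA pseudogenes (percent, log axis) in the 12 Control libraries, poor left of standard, with 1 line per population. Among the standard libraries, C3 and C4 carry the highest germline and cell cycle sums. The germline sum of C5 poor, at 1790 CPM, exceeds that of C3 standard. Midgut sums are low on poor in 3 populations, and the rRNA share is higher on poor in all 6.

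No gene was called. Of 10184 genes, 0 passed in Control populations (0% called, smallest adjusted p = 0.915), and 396 genes (3.89%) had an unadjusted p below 0.05, 251 of them higher on poor (2.46%) and 145 lower (1.42%). The share below 0.05 is under the 5% that p-values spread evenly would give. limma-voom also called 0, while DESeq2 called 15 genes, 8 higher and 7 lower, at adjusted p of 0.0499 or less. Differences had the same direction in 6 of 6 populations for 305 genes (2.99%), 165 higher (1.62%) and 140 lower (1.37%). Over all genes 46% of fold changes were positive and 54% negative, the shares to set beside the list counts below. All 6 poor libraries lay above, or all below, the 6 standard ones for 17 genes (0.167%), 12 above (0.118%) and 5 below (0.0491%). The median standard error was 0.147 on the log2 scale. The median 95% interval, not adjusted for the number of genes, reached 0.342 to either side. For a gene with that interval, an estimate smaller than 0.342 in either direction has an unadjusted p above 0.05. A call after adjustment over 10184 genes needs a larger estimate. In the Selected populations the same fit called 54 genes (0.53%), 34 higher (0.334%) and 20 lower (0.196%), and 1063 genes (10.4%) had an unadjusted p below 0.05. A test of the difference between the regimes' diet effects called 0 genes (0%) in edgeR and 1 in DESeq2, with 155 (1.52%) at an unadjusted p below 0.05.

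**Figure D2:**
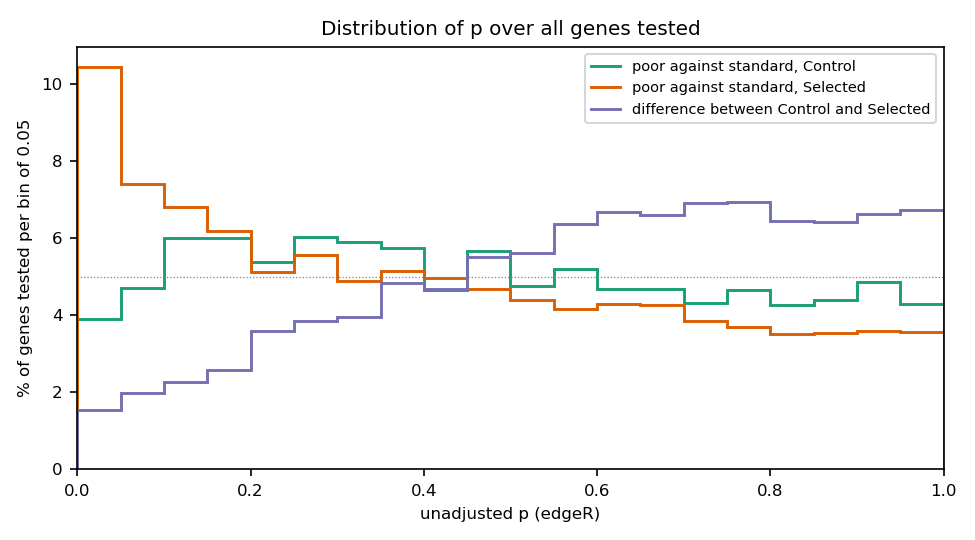
Share of the genes tested (percent) in each bin of 0.05 of the unadjusted edgeR p, for diet in Control, diet in Selected, and the difference between them; the dotted line marks an even spread of 5%. The lowest bin holds 3.89% of genes in Control, 10.4% in Selected and 1.52% for the difference.

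The 6 populations differed in how far and in which genes their diets moved apart. Of 9123 genes at 1 CPM or more, C3 had 14.8% and C4 14.5% with more than a 2-fold difference between its diets, against 7.57% in C1, 4.9% in C2, 5.86% in C5 and 8.08% in C6. In C4 most of these genes were lower on poor, 1003 against 319 higher, while in C5 437 were higher and 98 lower. Across genes, which are not independent replicates, the differences of a pair of Control populations correlated at a median of 0.10 over the 15 pairs of populations, from -0.44 to 0.42. C3 and C4 are the populations whose standard library held the most germline and cell cycle RNA. The part of that residue in any gene's result was not tested.

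Of the 10 genes with the smallest p among those lower on poor food, Diedel and Ilp8 came first, at low levels given further on, and GstD1 and Ass next. GstD1 (FBgn0001149, 3R 12367817-12369268 on BDGP6.54), a glutathione S-transferase that conjugates toxins and products of lipid peroxidation, had 186, 155, 222, 215, 152 and 137 CPM in C1 to C6 on poor food and 245, 169, 322, 292, 197 and 177 CPM on standard food. Every population was lower on poor, while the ranges of the diets overlapped. The difference was -0.37 ± 0.07 (95% interval -0.55 to -0.20, edgeR unadjusted p = 0.00113, not called), and DESeq2 called it (adjusted p = 0.00175). GstD1 had also been picked out by earlier results of all 24 libraries. Ass (FBgn0026565, 3R 6642262-6644434), the argininosuccinate synthase that makes the precursor of arginine, had 29.9, 26.5, 25, 15.6, 30.3 and 19.5 CPM on poor against 41.2, 43.3, 31.3, 23.7, 33.2 and 32 CPM on standard in C1 to C6. It too was lower in 6 of 6, by -0.49 ± 0.10 (edgeR unadjusted p = 0.00124, DESeq2 adjusted p = 0.0201). Aldh7A1 (FBgn0036857, 3L 19266473-19268913), an aldehyde dehydrogenase of lysine breakdown, ran from 39.5 through 59.3 to 67.1 CPM on poor and from 42.1 through 73.2 to 108 CPM on standard. Its difference of -0.41 ± 0.09 had the same sign in all 6 populations. CG8665 and CG3625, at -0.41 ± 0.10 and -0.36 ± 0.09, were likewise lower in 6 of 6.

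The gene fiz (fezzik, FBgn0030594, X 14906334-14909708) encodes an oxidoreductase whose variants have been linked to larval growth and body size in this species. It had 7.24, 10.6, 15.3, 64.1, 123 and 5.47 CPM on poor food in C1 to C6, and 27.1, 37.2, 25.1, 145, 149 and 47.2 CPM on standard food. C4 and C5 stood far above the other populations on both diets, and within every population the poor library was lower. The difference was -1.47 ± 0.35 (95% interval -2.29 to -0.65, edgeR unadjusted p = 0.00356, DESeq2 adjusted p = 0.00469). In Selected populations, which share no library with these, it was -1.30 (adjusted p = 0.0637, not called).

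Other genes at the low end were scarce in the carcass. Ilp8, a relaxin-like peptide by which damaged or slowly growing larval tissue delays metamorphosis, lay between 0 and 0.264 CPM on poor food (median 0.123) and between 0.0673 and 7 CPM on standard food (median 1.23). Its level was 7 and 6.72 CPM in C3 and C4 standard, the standard libraries with most germline RNA. Ilp8 was at 0.264 CPM in C5 poor and 2.17 CPM in C5 standard. C5 poor held more germline RNA than C3 standard but less cell cycle RNA, with sums of 481 and 999 CPM. The part of ovary residue in the Ilp8 values was not tested. Ilp8 was lower on poor in 6 of 6 (-3.72 ± 0.71, edgeR unadjusted p = 0.00101). Diedel, a secreted regulator of immune signalling, had a median of 0.277 CPM on poor and 0.697 on standard and differed by -1.54 ± 0.28, lower in 6 of 6 (edgeR unadjusted p = 6.95e-04). Obp56d, an odorant binding protein, had medians of 2.69 and 4.67 CPM on poor and standard and differed by -0.81 ± 0.16 in 6 of 6. Muc12Ea was at or below 0.0358 CPM in all poor libraries and reached 15.8 CPM in 1 standard library, so no fold change is given. Jon25Bi and Jon25Bii, proteases of the midgut, did not overlap between the diets: Jon25Bi ran from 0.0664 to 5.47 CPM on poor and from 10.8 to 94.3 CPM on standard. They belong to the midgut list, whose sum varied between the diets as given above. DESeq2 called them and MFS1, a transporter at 0 to 2 CPM on poor and 0.762 to 9.09 CPM on standard.

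**Figure D3:**
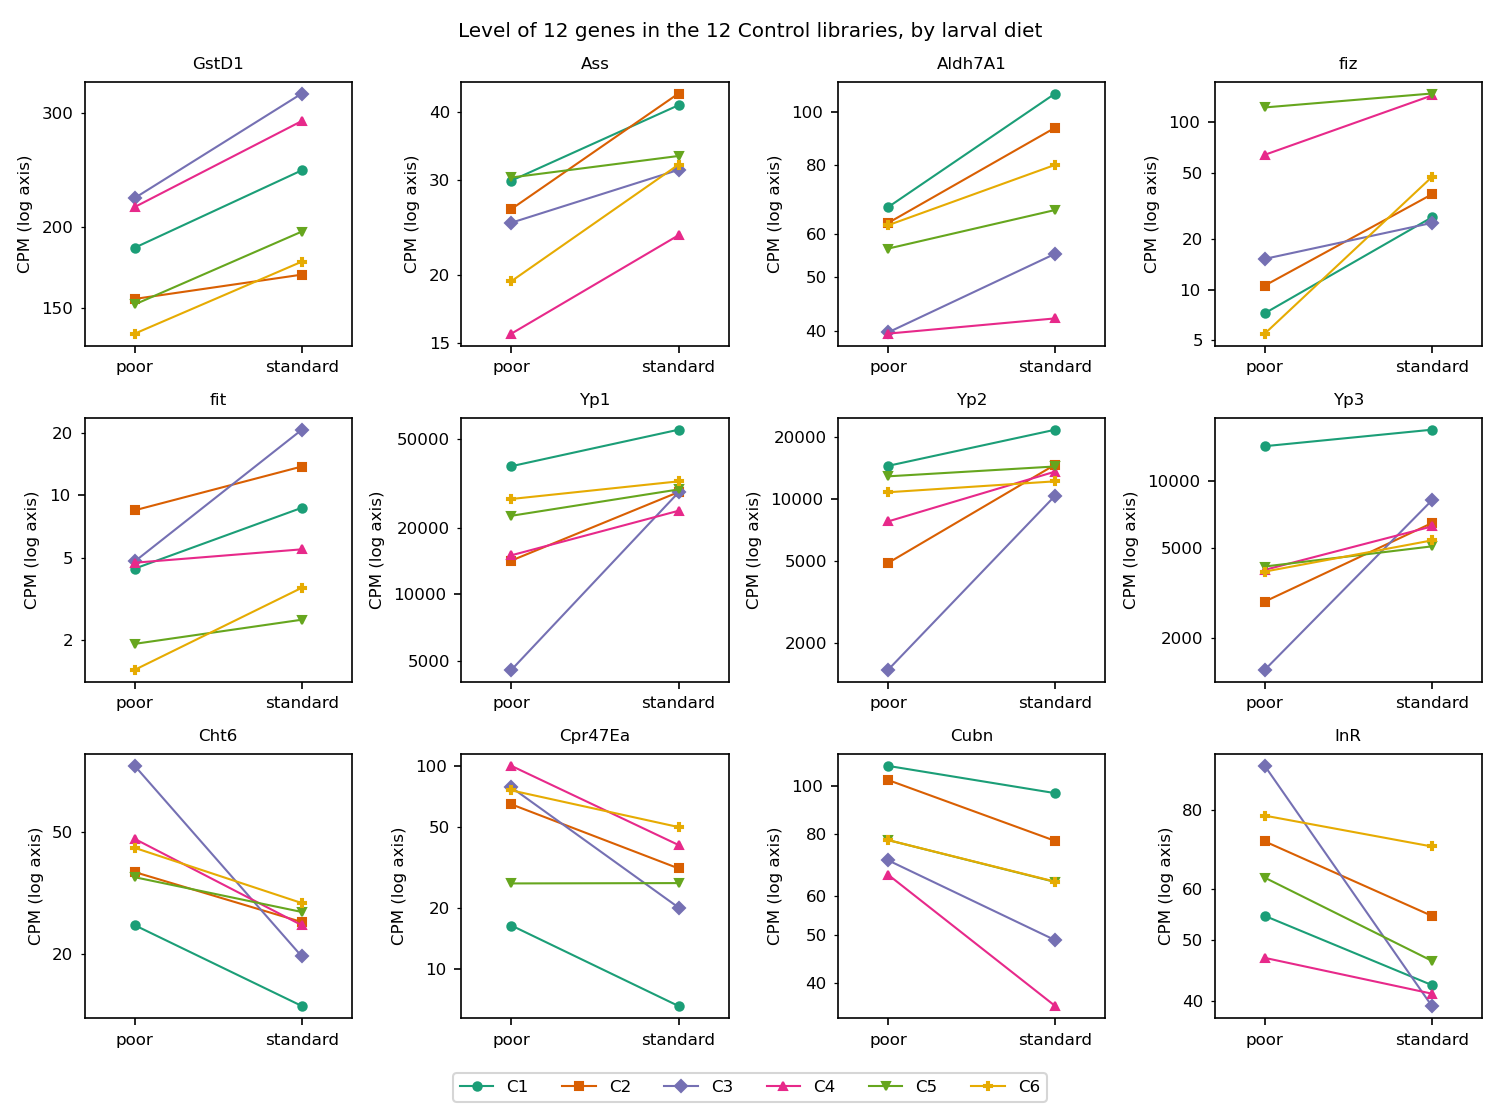
Level of 12 genes (CPM, log axis) in the 12 Control libraries, poor left of standard, 1 line per population. The first 8 genes, from GstD1 to Yp3, are lower on poor in all 6 populations, and Cht6, Cubn and InR are higher in all 6; none was called by edgeR.

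At the upper end stood genes of the cuticle and the nervous system, and the rRNA pseudogenes. Cht6 (FBgn0263132, X 10016845-10050803), a chitinase, had 24.8, 37, 82.3, 47.5, 35.6 and 44.4 CPM on poor in C1 to C6, against 13.5, 25.4, 19.6, 24.8, 27.4 and 29.3 CPM on standard. It was higher on poor in 6 of 6, by 0.89 ± 0.21 (95% interval 0.39 to 1.39, edgeR unadjusted p = 0.00365, DESeq2 adjusted p = 0.0499). Cht6 too had been picked out by earlier results of all 24 libraries. Cpr47Ea (FBgn0033597, 2R 11251751-11253398), a chitin-binding cuticle protein, had 16.3, 64.6, 78.3, 100, 26.3 and 75.7 CPM on poor and 6.53, 31.2, 20, 40.7, 26.4 and 49.9 CPM on standard. The poor library was the higher one in 5 of 6 populations and level with standard in C5, for a difference of 1.04 ± 0.24 (DESeq2 adjusted p = 0.0144). Cubn, the cubilin receptor with which nephrocytes take up protein from the hemolymph, ran from 66.3 through 77.9 to 110 CPM on poor and from 36 through 64.2 to 96.9 CPM on standard, and was higher in 6 of 6 (0.43 ± 0.10). The transcription factor pros, prospero, which marks neural and glial fates, did not overlap, at 5.65 to 9.83 CPM on poor against 2.55 to 5.58 CPM on standard (0.66 ± 0.16). The gene insc, inscuteable, which orients neuroblast division, differed by 0.36 ± 0.09, again in 6 of 6. The pseudogenes 18SrRNA-Psi:CR45861, 18SrRNA-Psi:CR41602, 28SrRNA-Psi:CR40596, 28SrRNA-Psi:CR45862 and 28SrRNA-Psi:CR45851 fill the other ranks up to 10, at 1.02 to 1.09. They share reads with the ribosomal RNA and with each other, so their values are uncertain singly. Their list had a median of 1.03, and 0.64 without C3 and C4. They give the summed share above, and DESeq2 called all 5 of them and 28SrRNA-Psi:CR45859.

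Cuticle genes were the widest group on the higher side. Of the 25 tested Cpr genes, which code for chitin-binding cuticle proteins, 10 had an unadjusted p below 0.05 with a higher level on poor and 0 with a lower one, beside 2.46% of all genes higher. The fold change was positive in 15 of 25 and its median was 0.10, beside -0.02 over all genes, and 10 of 25 were negative. Those with the higher level include Cpr49Ah (1.54 ± 0.53), Cpr92F (1.16 ± 0.47), Cpr100A (0.66 ± 0.24) and Cpr97Eb (0.63 ± 0.22), named here because they rose in Selected populations. Cpr49Ae, with the most reads of the list, had medians of 972 CPM on poor and 866 on standard (0.37 ± 0.23, higher in 5 of 6), and Cpr49Ab, the next, 814 CPM on poor and 860 on standard (-0.01 ± 0.16). Of 19 other cuticle proteins, 15 were positive and 7 had p below 0.05 higher, with a median of 0.33. Acp1, an adult cuticle protein, ran from 35.4 through 76.9 to 297 CPM on poor and from 3.19 through 51.5 to 67.7 CPM on standard (1.36 ± 0.45). Its C5 libraries went the other way, with 57.5 CPM on poor and 60.2 on standard. Gasp, a chitin-binding protein of the tracheal and body wall cuticle, differed by 0.64 ± 0.20 and was higher in 5 of 6.

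Enzymes that build and trim chitin had a median of -0.01 with 15 of 33 positive. Against shares of 2.46% higher and 1.42% lower over all genes, 6 of 33 had p below 0.05 higher and 0 lower. Beside Cht6 these were, by their values, Cda5 (0.68), exp (0.65), verm (0.53), serp (0.46) and Cht7 (0.42). Cda5, verm and serp are chitin deacetylases, which modify chitin as cuticle matures. kkv, the chitin synthase, had a median of 7.25 CPM on poor and 4.21 on standard (0.66 ± 0.36, edgeR unadjusted p = 0.104). Of 27 genes of tanning, pigmentation and bristles 22 were positive, beside 46% of all genes. Of the 27, 5 were higher in 6 of 6 populations, beside 1.62% of all genes. They include f, forked, which bundles actin in growing bristles, with 0.742 to 3.51 CPM on poor and 0.399 to 2.15 CPM on standard (1.08 ± 0.28, edgeR unadjusted p = 0.00538), and y, yellow, needed for black melanin. exp, serp, Cht7 and y were chosen after their values were seen. C5 was the exception in this group: its median was -0.20 for Cpr genes, -0.14 for other cuticle proteins and -0.18 for chitin enzymes, while the other 5 populations had positive medians in each of these 3 lists. The Cpr median was -0.02 without C4 and 0.25 without C5. Without C3 and C4, a setting chosen after the data were seen, it was 0.02, and the median of the other cuticle proteins was 0.20.

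The 3 yolk protein genes were lower on poor food in every population. Yp1 (FBgn0004045, X 10053811-10055498) had 37800, 14200, 4570, 15000, 22600 and 26900 CPM on poor and 55200, 28900, 28800, 23800, 29700 and 32300 CPM on standard in C1 to C6. C3 differed most and C6 least. Yp1 differed by -0.90 ± 0.32 (95% interval -1.65 to -0.15, edgeR unadjusted p = 0.0253), Yp2 by -0.99 ± 0.36 and Yp3 by -0.86 ± 0.31, none of them called. The 3 genes were picked out by earlier results of all 24 libraries, so their shared sign is a description. The median of the 3 was -0.58 without C3 and -0.56 without C3 and C4. In the wider list of female fat body and hemolymph genes 15 of 20 tested were negative, with a median of -0.20 (-0.11 without C3), and 5 had p below 0.05 lower, the yolk proteins, fit and Lsp2. The gene fit, a peptide of the female fat body that curbs protein appetite, had medians of 4.57 CPM on poor and 7.1 on standard and was lower in 6 of 6 (-0.95 ± 0.26, edgeR unadjusted p = 0.00717). Like the yolk proteins, fit was picked out by those earlier results, so its sign is a description too. Lsp2, a larval storage protein, was at a median of 1.73 CPM on poor and 2.98 on standard (-0.75 ± 0.22, lower in 6 of 6).

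The list of glutathione S-transferases, GstD1 included, lay slightly below 0. Of 30 glutathione S-transferases 25 were negative, the median was -0.16, and the list median was below 0 in all 6 populations, from -0.05 in C4 to -0.21 in C3, although only GstD1 had p below 0.05. In C4 the median over all genes was -0.06, so the list did not lie below it there. GstE12, among the most abundant, had medians of 318 CPM on poor and 409 on standard (-0.20 ± 0.11). Of 25 UDP-glycosyltransferases 17 were negative (median -0.14, -0.30 without C3, and -0.33 without C3 and C4). Of 75 cytochrome P450 genes 44 were negative (median -0.06, and 0.03 without C6), near the 54% negative over all genes. Cyp4g1, the oenocyte enzyme that finishes cuticular hydrocarbons, had medians of 50300 CPM on poor and 57800 on standard (-0.06 ± 0.21).

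Nuclear genes of the respiratory chain and genes of both kinds of ribosome lay just below 0, nearly all with the same sign. Of 63 nuclear genes of the respiratory chain and ATP synthase 61 were negative (median -0.19), of 73 mitochondrial ribosomal proteins 72 (median -0.14), and of 83 cytoplasmic ribosomal proteins 80 (median -0.16). Over all genes tested 54% were negative. The populations did not share this: the cytoplasmic ribosomal median was 0.25 in C6 and 0.02 in C4, against -0.56 in C5 and -0.42 in C3, and only 5 genes of the 3 lists had p below 0.05. RpL5, for example, ran from 3440 through 4720 to 5200 CPM on poor and from 4450 through 4840 to 5500 CPM on standard (-0.14 ± 0.15). Leaving out C3 gave -0.11 for the respiratory chain and -0.06 for the mitochondrial ribosomal proteins, leaving out C5 gave -0.08 for the cytoplasmic ones, and without C3 and C4 the mitochondrial ribosomal median was -0.02. The mRNAs that the mitochondrial genome itself encodes had 7 of 13 positive, with a median of 0.02. All 6 genes of the pentose phosphate pathway were negative (median -0.17), led by Taldo (-0.25 ± 0.10) and Rpi (-0.19 ± 0.07), with 2 below p 0.05. Glycolysis had 18 of 21 negative (median -0.13) and the TCA cycle 15 of 18 (median -0.13, and -0.06 without C3), with 0 below p 0.05 in either.

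Genes of fat metabolism lay on both sides of 0. Fatty acid and triglyceride synthesis had 14 of 26 positive (median 0.01). FASN1, the fatty acid synthase of the fat body, had medians of 5980 CPM on poor and 7480 on standard (-0.24 ± 0.14), and Desat1, the main desaturase, 8680 and 9100 CPM on poor and standard (0.10 ± 0.14). Lipid droplet and lipolysis genes were split 6 and 6, among them bmm, the brummer lipase, at 0.13 ± 0.07. Of the fatty acid oxidation genes, 14 of 20 were negative and 3 had p below 0.05 lower, including Arc42 (-0.23 ± 0.08) and Mcad (-0.19 ± 0.08). In the list of amino acid metabolism 2 of 37 genes were below p 0.05, both lower, among them P5cr-2 of proline synthesis (-0.35 ± 0.11). Ass and Aldh7A1, described above, are not among the genes tested in that list. Prat2, the amidotransferase that opens purine synthesis, had medians of 160 CPM on poor and 232 on standard and was lower in 6 of 6 (-0.57 ± 0.19, edgeR unadjusted p = 0.0197).

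Most nutrient signalling genes were close to level between the diets, and the insulin receptor had the smallest p of those higher on poor in the insulin list. InR (FBgn0283499, 3R 21570248-21619321), whose transcription FOXO raises when insulin is low, had 54.5, 71.4, 93.9, 46.8, 62.6 and 78.4 CPM on poor and 42.4, 54.5, 39.3, 41.1, 46.3 and 70.1 CPM on standard. Every population was higher on poor, by 0.46 ± 0.15 (95% interval 0.12 to 0.80, edgeR unadjusted p = 0.0145). Thor, the translation repressor 4E-BP and another FOXO target, did not go with it: its medians were 732 CPM on poor and 823 on standard (-0.10 ± 0.13, higher in 1 of 6). InR and Thor were picked out by earlier results of all 24 libraries, so their values are a description. Of 31 insulin and FOXO genes 22 were positive, 1 had p below 0.05 higher, which was InR, and 1 lower, which was Ilp8 (median 0.09, and 0.04 without C3). TOR and growth genes had a median of -0.03 with 3 of 28 below p 0.05, all higher, led by unk (0.37 ± 0.10), which did not overlap between the diets.

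Immune and stress genes were not called either. Antimicrobial peptides split by population, with medians of 1.01 in C1, 0.86 in C5 and 0.56 in C4 against -0.93 in C3, -0.71 in C6 and -0.19 in C2 (0.08 over all, -0.20 without C1 and 0.32 without C6). Of the 12 Bomanins, short Toll-induced peptides, 11 were positive, with a median of 0.14 that was 0.02 without C4 and -0.03 without C4 and C5, a setting chosen after the data were seen. Their population medians also lay on both sides, at 0.90 in C4, 0.55 in C5 and 0.48 in C1 against -0.45 in C3 and -0.29 in C2. BomS2 had medians of 728 CPM on poor and 549 on standard (0.48 ± 0.20). All 6 tested Turandot and related stress peptides were negative (median -0.43, -0.85 without C1 and -0.17 without C3), yet in C1 the median was 1.07. Heat shock proteins and chaperones had 21 of 25 negative, with a median of -0.12 over all and -0.05 without C4. The list median was below 0 in all 6 populations, from -0.14 in C2 to -0.01 in C1. Hsp83 was at -0.21 ± 0.12 and Hsc70-4 at -0.22 ± 0.13. In the circadian clock, tim was higher in 6 of 6 (medians 277 CPM on poor and 212 on standard, 0.47 ± 0.15) and cry lower in 6 of 6 (101 CPM on poor and 139 on standard, -0.35 ± 0.10).

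Neuronal markers were positive in 21 of 22 tested genes, beside 46% of all genes, with a median of 0.38. Of the 22, 6 had p below 0.05 higher, beside 2.46% of all genes. elav, the pan-neuronal RNA-binding protein, had medians of 18.2 CPM on poor and 14.8 on standard (0.38 ± 0.12), and cpx, complexin of the synapse, 52.8 on poor and 46.4 on standard (0.38 ± 0.13). The 1 negative gene, unc-13, had the highest mean level of the list. Its medians were 65.6 CPM on poor and 66.7 on standard (-0.09 ± 0.15, lower on poor in 5 of 6). The summed level was 304 ± 58.6 CPM on poor and 255 ± 49 CPM on standard (SD, n = 6 each), higher in 5 of 6 populations (exact permutation p = 0.0938, two-sided), with C6 the exception. Summed hemocyte markers averaged 3530 ± 666 CPM on poor and 3310 ± 858 on standard (exact permutation p = 0.219), and body wall muscle 14600 ± 624 and 14500 ± 2090 CPM on poor and standard (exact permutation p = 1), so neither tissue differed beyond its spread.

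**Figure D4:**
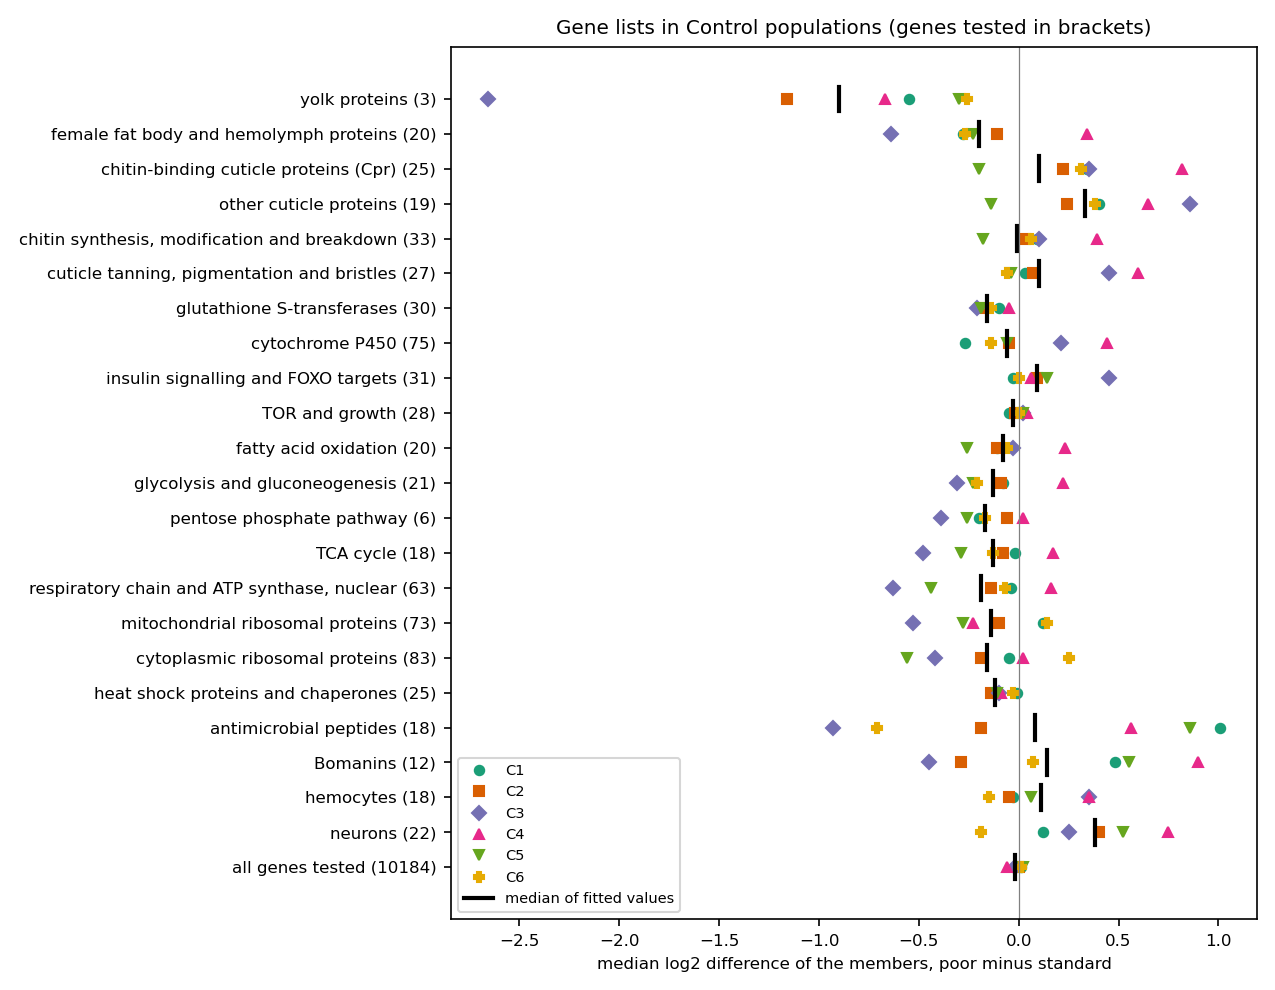
Median log2 difference, poor minus standard, of the tested members of 22 gene lists and of all genes tested in each Control population (points), with the median of the fitted values (bar). The glutathione S-transferases, heat shock proteins and yolk proteins lie below 0 in all 6 populations, while the ribosomal and immune lists have populations on both sides of 0.

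The test that called genes in the Selected populations used no Control library, so their Control values are a separate measurement. The gene filter and the scaling factors were shared over all 24 libraries. The Selected calls themselves rest on all 6 populations: edgeR called 0 higher and 1 lower without S1, 1 and 1 without S2, S3 or S4, 9 and 27 without S5, and 15 and 2 without S6. Of the 34 genes that rose on poor food in Selected populations, 34 had a positive fold change in Control, beside 46% of all genes, and 22 had an unadjusted p below 0.05, beside 2.46% of all genes higher. Their median was 0.67 in Control and 1.18 in Selected, and 13 of the 34 are on the cuticle and chitin lists. Genes are not independent replicates, so these counts are a description. CG15080, for example, had 5.87 through 11.2 to 30 CPM on poor and 1.34 through 6.28 to 7.64 CPM on standard in Control (1.18 ± 0.33, higher in 6 of 6) and 1.24 in Selected (adjusted p = 0.0274). Cht6 (0.89 in Control, 1.04 in Selected), f (1.08 and 1.13) and Cda5 (0.68 and 0.86) had similar values in both regimes. CG13946 had medians of 3.51 CPM on poor and 0.878 on standard in Control (1.83 ± 0.55), and 2.98 in Selected. The count of 22 depends on few populations: it was 7 without C3 and C4, 9 without the population block, 12 without C3, and 10 without C1 or without C4.

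The 20 genes that fell on poor food in Selected populations had fold changes nearer 0 in Control. Of them 17 were negative, with a median of -0.25 in Control and -2.94 in Selected, and 1 had p below 0.05. That one was CG31373, at 8.31 through 11.4 to 22.3 CPM on poor and 10.4 through 18.2 to 30.6 CPM on standard (-0.52 ± 0.14, lower in 6 of 6). Many of the 20 varied widely between Control libraries on either diet. The transporter Oatp58Db ran from 0 to 13.4 CPM on poor and from 0 to 11.8 CPM on standard, and salt from 0.111 to 46 CPM on poor and from 0.275 to 38.6 CPM on standard (-0.19 ± 1.95 in Control, -3.63 in Selected). Of the 20, 3 are on the list of Malpighian tubule genes, and that list summed to 1600 to 2340 CPM on poor and 1490 to 2480 CPM on standard in Control. The difference between the regimes was called for 0 of the 54 genes and had an unadjusted p below 0.05 for 22, beside 1.52% of all genes. Those 22 are 12 of the genes that rose and 10 of those that fell, and since the 54 were chosen for their effect in Selected, the sizes in the 2 regimes are set side by side as a description.

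**Figure D5:**
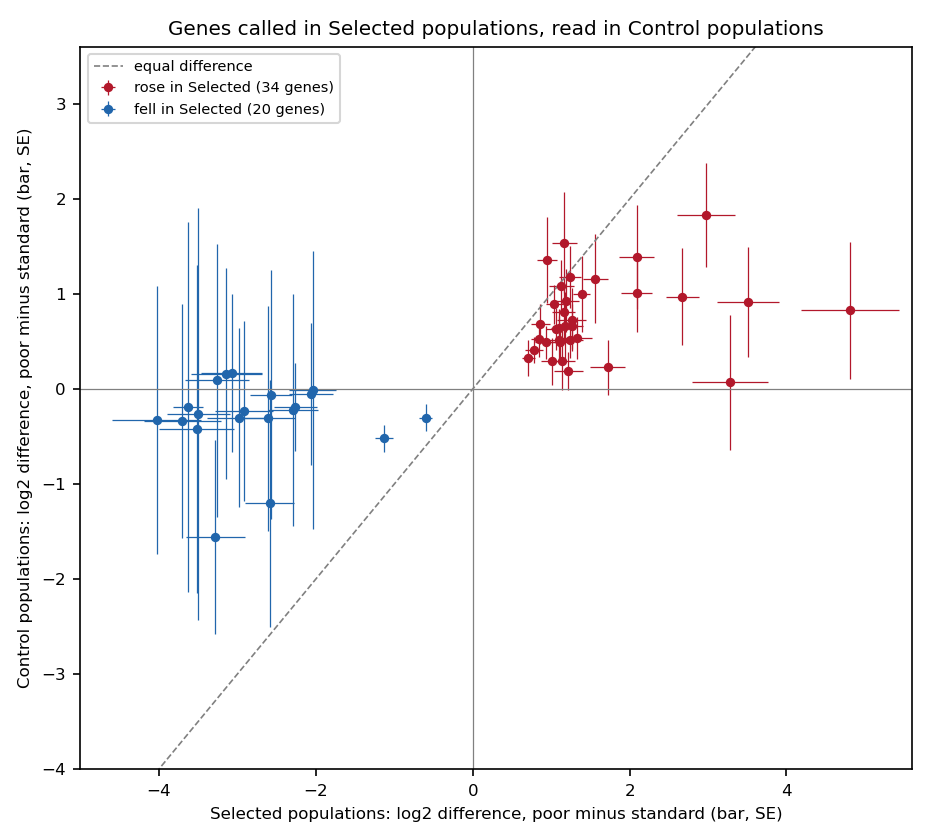
Log2 difference, poor minus standard, of the 54 genes called in Selected populations (horizontal axis) and the same genes in Control populations (vertical axis), with SE bars and a dashed line of equal difference. All 34 genes that rose in Selected lie above 0 in Control, mostly under the dashed line, and the 20 that fell lie around 0 in Control with wide bars.

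The difference between the regimes was also ranked among genes with a mean of at least 1 CPM over the 24 libraries. The smallest edgeR unadjusted p-values fell on Pfas (3.91e-04), frac (0.00213) and phu (0.00314), and none was called by edgeR. Pfas, a purine synthesis enzyme, had medians of 144 CPM on poor and 136 on standard in Control. Its log2 difference was -0.01 ± 0.07 in Control and 0.42 in Selected. The gene frac was at 0.19 ± 0.20 in Control and rose by 1.22 in Selected, and phu was at -0.33 ± 0.23 in Control and 1.04 in Selected.

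The genes with the highest mean TPM, a unit scaled for length, were not called, and apart from the yolk proteins and mt:CoIII their fold changes were within 0.16 of 0. Cyp4g1, at 20600 to 34100 TPM on poor and 20900 to 33800 on standard, headed them. CG45080, whe, Nplp2, RpL41, eEF1alpha1 and CG16826 had fold changes between -0.12 and 0.16 in Control. The cytochrome oxidase transcript mt:CoIII averaged 9570 ± 4010 TPM on poor and 6860 ± 1290 TPM on standard (SD, n = 6 each). Its populations split, with log2 differences of 1.31 in C1 and 1.54 in C4 against -1.02 in C5, and a fitted 0.34 ± 0.34. In Yp1 the diets spanned 4150 to 26400 TPM on poor and 20100 to 39400 TPM on standard. The lowest poor value of both Yp1 and Yp2, 1360 TPM for Yp2, came from C3.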

How the data were processed

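RNA-seq of abdominal carcass from mated females gave 1 library per population and larval diet, as single reads of 150 bp from 2 lanes. The authors used kallisto 0.46.2, limma and edgeR with build BDGP6, per the submitters' processing notes. The deposited files hold, per the file headers, an estimated count and a TPM value for each transcript; estimated counts are not normalized and can be fractional, and TPM is scaled for length and library total by the authors. The use of strand in quantification is not stated in the sources used. The 24 columns of a deposited table of normalized log values for the whole series were not used.

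For each gene the estimated counts of its transcripts were added up and rounded to whole numbers. Of 30944 transcripts 30811 were joined to the BDGP6.54 annotation; the 133 not joined carried 0.282% of counts. Genes with near-identical copies share reads, so their values are uncertain. edgeR 4.0.16 (R 4.3.3, TMM factors over 24 libraries, filterByExpr over 4 groups) tested poor against standard in the 12 Control libraries with population as a block. The Selected libraries were fitted likewise and the interaction on all 24. Benjamini-Hochberg adjusted p below 0.05 was called, over 10184 genes. DESeq2 1.42.0, limma-voom (limma 3.58.1), no block, other scalings and filters, and leaving out populations were alternatives. Single values per library were compared with exact sign flips of the 6 pairs. The scripts were tested on simulated counts. Total estimated counts were 29.4 to 31.2 M in Control libraries, and counting error is largest below about 1 CPM.

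Pairing comes from the labels, since both libraries of a pair are from the same population. Deviations of the paired libraries from their diet means had a mean correlation of 0.25 (range -0.13 to 0.65), and unpaired ones -0.05, and 2 of 6 libraries correlated best with their own pair.

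Members and gene lists were chosen with earlier results of these data known. The 54 lists hold 1036 symbols given by name, of which 48 were not matched, and further genes by name pattern; no list was tested as a set. Genes named are, of those at 1 CPM or more, the 10 smallest p in each direction; in each list the 2 with the highest mean CPM and the 1 with the smallest p; Yp1, Yp2, Yp3, InR, Thor, GstD1, Cht6 and fit; the 3 smallest p of the interaction; the 10 highest in mean TPM; and, added later, genes called in Selected populations or by DESeq2. Not every such gene is described. Promoter sequences were not analysed here.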

Additional observations from a re-analysis of the deposited data

Results flagged for a closer look

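Of 180 groups of 6 libraries examined, each a gene or a marker sum within 1 diet, 18 had a library farther from its nearest neighbour than Dixon's 95% limit allows, and chance flags about 1 in 20 groups.

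C4 on standard food stood apart most often. It was the lowest standard library for the pseudogenes 18SrRNA-Psi:CR41602 (1840 CPM), 28SrRNA-Psi:CR45851 (1790 CPM) and 28SrRNA-Psi:CR45859 (1150 CPM), for their sum (6470 CPM), for elav (10.4 CPM) and for summed body wall and flight muscle markers (10400 CPM). It was also the highest standard library for summed eggshell genes (1470 CPM). C1 on standard food was the lowest for 4 genes of higher level on poor, Acp1 (3.19 CPM), Cpr49Ah (0.508 CPM), Cpr92F (8.75 CPM) and CG15080 (1.34 CPM), and the highest for Yp1 (55200 CPM). On poor food, C1 was highest for Nplp2 (10800 CPM), C2 for pros (9.83 CPM), C5 for summed eggshell genes (899 CPM), C3 for summed Malpighian tubule markers (2340 CPM) and C6 for Muc12Ea (0.0358 CPM, the only poor library with any). On standard food C5 was highest for summed tubule markers (2480 CPM). The part of these libraries in the results was measured only by leaving populations out, as given under the dependence on processing.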

How the results depend on the processing

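No gene was called in Control populations under any of the alternatives but 2: DESeq2 called 8 higher and 7 lower, and without C3 and C4, a setting chosen after the data were seen, edgeR called 1 higher (Send1, an enzyme of the sperm storage organs). Leaving out 1 population at a time left 0 calls in either direction. Without the population block 0 genes were called and 231 had an unadjusted p below 0.05, against 396 with it; the number was 210 without C2 and 763 without C3 and C4. The block changed no call in Control populations. In Selected populations DESeq2 called 216 higher and 170 lower, and leaving out 1 population gave 0 to 15 higher and 1 to 27 lower in edgeR. For the difference between regimes DESeq2 called 1 gene lower in Control, leaving out 1 population gave 0 in either direction, and the number below an unadjusted p of 0.05 was 262 in DESeq2 and 97 to 266 with 1 Control population left out.

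Signs turned only for values near 0 or with wide intervals. Leaving out 1 population gave -0.09 to 0.14 for CG16826, -0.03 to 0.26 for CG45080, -0.15 to 0.11 for Cpr49Ab, -0.20 to 0.06 for Cyp4g1, -0.01 to 0.19 for Desat1, -0.14 to 0.10 for Nplp2, -0.03 to 0.03 for Pfas, -1.34 to 0.87 for Oatp58Db and -1.32 to 0.96 for salt. Without the block CG16826 was -0.10, CG45080 -0.09 and Nplp2 0.01. Upper-quartile scaling, and no filter on low counts, each gave 0.00 for Nplp2 and for Pfas. Without C3 and C4 the values were -0.23 for CG16826, -0.13 for CG45080, -0.05 for Desat1 and -0.20 for whe, and without C4 and C5 they were 0.09 for Oatp58Db and -0.01 for frac. For summed markers, leaving out 1 population gave -0.29 to 0.21 for germline, -0.75 to 0.36 for cell cycle, -0.66 to 1.33 for eggshell, -0.05 to 0.11 for tubule and -0.07 to 0.06 for muscle, and the raw difference for eggshell was -87.6 CPM. The rRNA pseudogene sum stayed higher on poor when 1 population was left out, at 0.85 to 1.16, with an exact permutation p of 0.0625, the smallest that 5 pairs allow. The cause of these changes was not tested. Of 594 list medians recomputed, 3 moved by more than 1 SD over populations: sex determination (-0.10 without C3 and C4), heat shock (-0.05 without C4) and larval storage proteins (-0.50 with members of at least 1 CPM).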
